A study of Mus musculus with 6 samples.

Results

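The 9 genes described here are rapidly induced genes, most of which encode regulators that act back on signalling or gene expression: the MAP kinase phosphatases Dusp1, Dusp4, Dusp5 and Dusp6, the transcriptional coregulator Btg2, the nuclear protein Ier2, the salt-inducible kinase Sik1, the stress-response gene Gadd45b and the zinc finger transcription factor Klf4. They were picked by gene symbol, with earlier results of these data known, and all 9 were found among the 19943 genes counted in the series. RNA was taken from the medial prefrontal cortex, a frontal part of the cerebral cortex, of C57BL/6 mice, and sequenced in 3 control libraries and in 3 libraries of mice that were socially isolated for 3 weeks from weaning. The libraries are called control 1 to 3 and isolated 1 to 3. Both groups are labelled as 6 weeks old, whereas the design text says 7 weeks. The labels do not say how control mice were housed, which sex was used, or whether each library came from a separate animal, so p-values measure only the spread between these libraries, which may be technical.

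When a neuron fires or a growth factor binds its receptor, calcium and the Ras-ERK cascade activate transcription factors such as CREB and SRF, and immediate early genes are transcribed within minutes without the need for new protein. Some of these genes, among them Fos and Arc, carry the response onward, and others act as brakes: the dual-specificity phosphatases remove the activating phosphates from ERK, p38 or JNK kinases, and Sik1 phosphorylates the CRTC coactivators of CREB and so keeps them out of the nucleus. In the resting cortex such genes are transcribed at low levels and their short-lived messages follow recent activity.

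For 6 of the 9 genes the RefSeq table of promoters (GRCm38.p6) held the bases before the transcription start. The 3 windows that carried a full CRE or a CArG box are shown, since these are the letters that CREB and SRF are known to bind. Each run holds the 250 bases upstream of the start, written 5′ to 3′ on the strand of the gene. Capitals mark the CRE TGACGTCA, its core TGACG on either strand (CGTCA where it lies on the other strand) and the CArG box. The windows are chr17:26508473-26508722 on the minus strand for Dusp1, chr1:134079156-134079405 on the minus strand for Btg2 and chr19:53528895-53529144 on the plus strand for Dusp5.
Dusp1: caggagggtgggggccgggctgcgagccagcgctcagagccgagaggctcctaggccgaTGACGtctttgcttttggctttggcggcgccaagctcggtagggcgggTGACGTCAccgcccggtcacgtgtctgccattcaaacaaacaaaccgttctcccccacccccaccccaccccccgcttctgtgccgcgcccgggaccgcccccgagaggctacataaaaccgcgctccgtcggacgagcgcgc
Btg2: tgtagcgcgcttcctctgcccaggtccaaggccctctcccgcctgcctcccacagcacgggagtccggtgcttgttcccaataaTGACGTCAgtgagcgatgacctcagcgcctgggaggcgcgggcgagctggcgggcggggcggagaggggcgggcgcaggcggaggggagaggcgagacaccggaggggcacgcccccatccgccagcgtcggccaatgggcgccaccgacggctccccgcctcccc
Dusp5: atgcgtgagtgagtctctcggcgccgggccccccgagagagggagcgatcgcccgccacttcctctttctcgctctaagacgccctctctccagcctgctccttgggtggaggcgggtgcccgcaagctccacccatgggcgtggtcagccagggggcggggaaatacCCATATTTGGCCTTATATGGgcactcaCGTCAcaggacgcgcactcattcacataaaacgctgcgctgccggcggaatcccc

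The Dusp1 window held a full CRE from base -143 to base -136 before the start and a further CRE core at -191. The Btg2 window held a full CRE from -166 to -159. In all, 1.55% of 32851 RefSeq promoter windows of this length had a full CRE on either strand. Dusp5 had a pair of CArG boxes, from -82 to -73 and from -72 to -63, and a CRE core at -55. A CArG box was found in 1.47% of all windows and a CRE core, which every full CRE also holds, in 17.8%. Klf4 had a CRE core at -232. Dusp6 and Gadd45b had neither a CRE core nor a CArG box. The EGR site GCGTGGGCG, found in 0.536% of all windows, was in none of the 6. Gadd45b had the letters TATAA at -46 and Klf4 at -31, and Dusp5 had them on the other strand inside its second CArG box, against 22.8% of all windows on either strand. Dusp1, Gadd45b and Klf4 had the E-box CACGTG, against 6.02%. The 6 windows were 56.4% (Dusp6) to 74.0% (Klf4) G or C bases, against a median of 52.4% over all windows. The shares over all windows were not matched for this. These matches describe letters and are not measured binding sites.

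The control libraries held 18226448 to 18544306 expected counts and the isolated libraries 18390902 to 18606573. Cortical excitatory neuron markers were above zero in all 6 libraries for 10 of 10 genes, with a summed level of 2320 to 2750 CPM (counts normalized for library size) in the controls and 2320 to 2710 CPM after isolation. Markers of striatal projection neurons, a neighbouring cell type, were above zero for 15 of 15 genes and varied most, with sums of 1460, 4270 and 598 CPM in controls 1 to 3 and 829, 809 and 3140 CPM in isolated 1 to 3. The oligodendrocyte sum was 2780 to 4660 CPM in the controls and 3630 to 6650 CPM after isolation. The groups were apart for astrocyte markers (3980 to 4240 CPM in the controls, 3700 to 3870 CPM after isolation), for endothelial markers, given beside Klf4, and for the scarce choroid plexus and ependymal markers (9.78 to 11.8 and 12 to 24.6 CPM). Of 12 marker lists of cell types, control 1 had the highest sum in 0 and the lowest in 0, control 2 the highest in 4 and the lowest in 1, and control 3 the highest in 2 and the lowest in 5. Isolated 3 had the highest in 4 and the lowest in 5. The part of these cell types in the values of the 9 genes was not tested, beyond the striatal alternatives given later. In bulk tissue, fewer cells of a type and less RNA per cell cannot be told apart.

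All 9 genes had a lower mean in isolated than in control libraries, and none of them passed the test. The fitted log2 differences of isolated over control ran from -0.70 for Dusp1 to -0.12 for Dusp5, with a median of -0.40 against -0.002 over the 15169 genes tested. With edgeR's quasi-likelihood test and Benjamini-Hochberg adjustment over all tested genes, 0 of the 9 genes and 0% of all genes had an adjusted p under 0.05, and the adjusted p of each of the 9 was 0.999. A difference below 0 was found for 9 of 9 genes and for 50.8% of all tested genes. An unadjusted p under 0.05 with a lower level in isolated libraries was found for 1 of the 9, Btg2, and for 2.0% of all genes. The 3 isolated libraries lay below all 3 controls for 0 of the 9 and for 4.73% of all genes. The genes respond to overlapping signals and were measured in the same libraries, so the 9 are not independent of each other. They were also chosen with earlier results of these data known, so shares over all genes are a description beside them. Over all genes 535 had an unadjusted p under 0.05 (231 higher, 304 lower) with edgeR. DESeq2 passed 1 gene (306 at an unadjusted p under 0.05), Fkbp5, which is not among the 9, and limma-voom passed 0 (536).

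**Figure D1:**
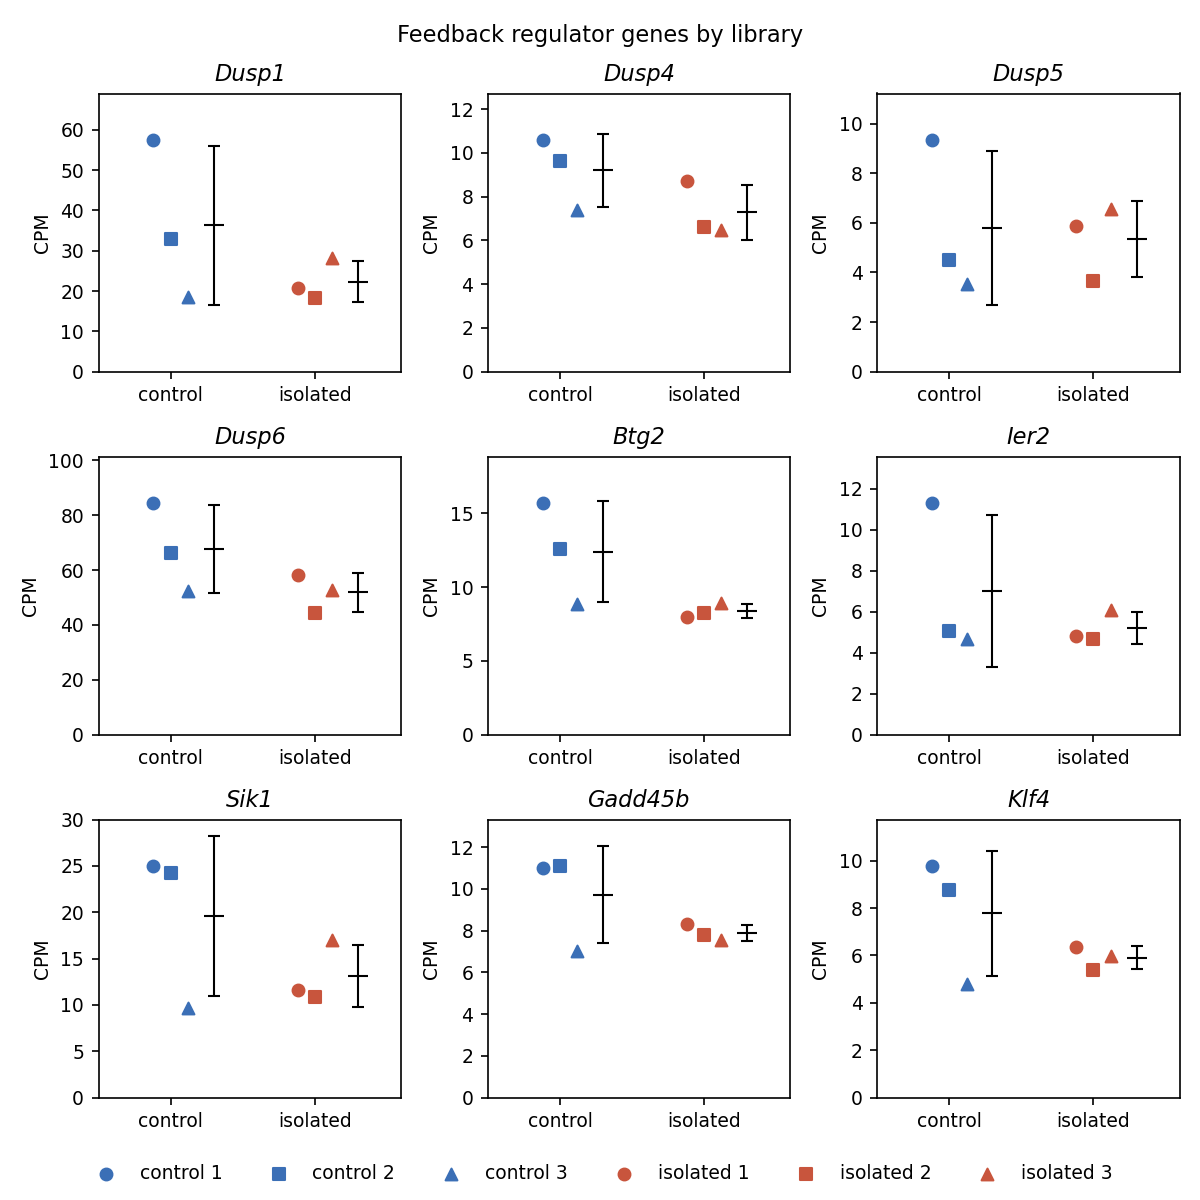
CPM of each of the 9 genes in the 3 control and the 3 isolated libraries, with points for libraries and, beside them, the mean of the group with its SD (n = 3). Control 1 is the highest library in 8 of the 9 genes, and the groups overlap in all 9.

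**Figure D2:**
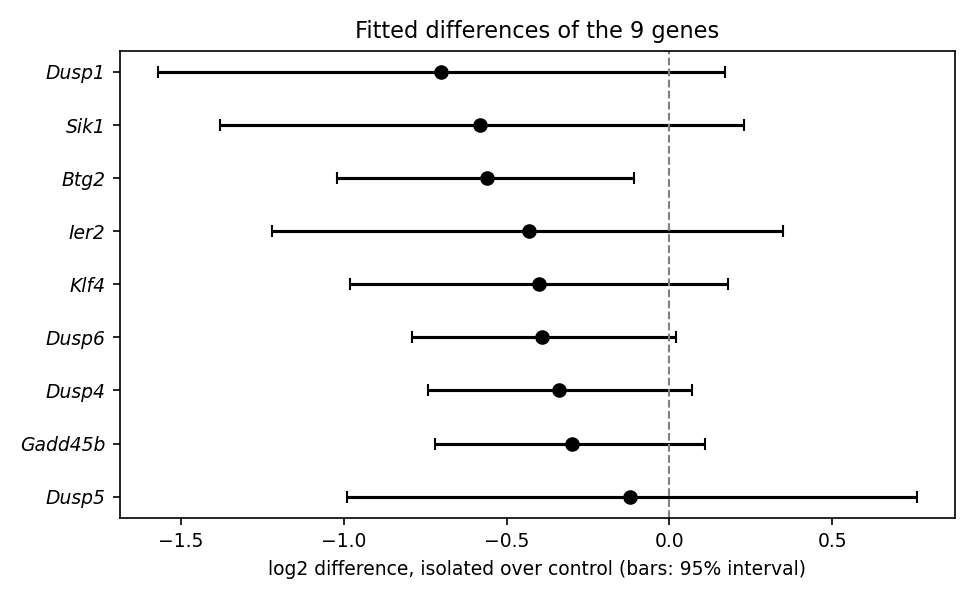
Fitted log2 difference of isolated over control for each gene, with its 95% interval from edgeR. The interval includes 0 for 8 of the 9 genes, and lies below 0 for Btg2, from -1.02 to -0.11.

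Dusp1 encodes MKP-1, a nuclear phosphatase of p38, JNK and ERK that is among the fastest of the family to be induced. It stood at 57.5, 32.9 and 18.4 CPM in controls 1 to 3 and at 20.7, 18.2 and 28.1 CPM in isolated 1 to 3. Control 1 was highest by far, control 3 lay within the isolated range, and isolated 3 was the highest isolated library. The means were 36.3 ± 19.8 CPM for the controls and 22.3 ± 5.13 CPM after isolation (SD, n = 3), with a log2 difference of -0.70 (SE 0.37, 95% interval -1.57 to 0.17). Without control 1 the difference was -0.20, and without control 3 it was -1.02. The gene lies on chromosome 17 from 26505591 to 26508472 (GRCm38, minus strand, Entrez 19252), and the exons of Ergic1 on the other strand cover 0.332% of its exon bases.

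Dusp4 encodes MKP-2, another nuclear phosphatase, and lies on chromosome 8 from 34807610 to 34819894 (GRCm38, plus strand, Entrez 319520). Its levels were 10.6, 9.64 and 7.37 CPM in controls 1 to 3 and 8.74, 6.63 and 6.5 CPM in isolated 1 to 3. Isolated 1 lay between the controls, and the other two isolated libraries lay below them. The means of 9.2 ± 1.66 and 7.29 ± 1.26 CPM (SD, n = 3) gave a log2 difference of -0.34 (SE 0.18, 95% interval -0.74 to 0.07), which was -0.22 without control 1. Dusp4 was the only gene of the 9 whose highest control was less than 1.5 times its lowest, at 1.44 times.

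Dusp5 encodes a nuclear phosphatase that acts on ERK, binds it and holds it in the nucleus. Its levels were 9.35, 4.52 and 3.52 CPM in controls 1 to 3 and 5.86, 3.64 and 6.55 CPM in isolated 1 to 3. Only control 1 lay above the isolated range, and isolated 1 and isolated 3 exceeded both other controls. The means of 5.8 ± 3.12 and 5.35 ± 1.52 CPM (SD, n = 3) differed by -0.12 in log2 (SE 0.38, 95% interval -0.99 to 0.76). This difference turned to 0.41 without control 1 and to 0.10 without isolated 2. The gene lies on chromosome 19 from 53529145 to 53541809 (GRCm38, plus strand, Entrez 240672). Exons of AC137853.2 on the other strand cover 22.1% of its exon bases, and the sources used here do not say whether counting used strand, so its reads cannot be fully told apart from that gene's. It also had the lowest count of the 9 genes, 64 in control 3.

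Dusp6 encodes MKP-3, the cytoplasmic phosphatase of ERK, whose transcript is widely used as a readout of ERK activity. It was the most abundant of the 9, at 84.5, 66.3 and 52.4 CPM in controls 1 to 3 and 58.3, 44.4 and 52.9 CPM in isolated 1 to 3. Controls 1 and 2 lay above all isolated libraries, and control 3 lay below isolated 1 and isolated 3. The means of 67.7 ± 16.1 and 51.9 ± 7.04 CPM (SD, n = 3) gave a log2 difference of -0.39 (SE 0.17, 95% interval -0.79 to 0.02). Without control 1 it was -0.19. Dusp6 lies on chromosome 10 from 99263231 to 99267489 (GRCm38, plus strand, Entrez 67603).

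Btg2 encodes an antiproliferative protein that brings the CCR4-NOT deadenylase to messenger RNAs and is induced by p53 and by growth factors. Its levels were 15.7, 12.6 and 8.85 CPM in controls 1 to 3 and 7.98, 8.27 and 8.89 CPM in isolated 1 to 3. The isolated libraries were nearly level, the highest at 1.11 times the lowest, and control 3 lay just under isolated 3. The means of 12.4 ± 3.42 and 8.38 ± 0.468 CPM (SD, n = 3) gave a log2 difference of -0.56 (SE 0.19, 95% interval -1.02 to -0.11, edgeR adjusted p = 0.999). Without control 1 it was -0.36. Btg2 lies on chromosome 1 from 134074865 to 134079155 (GRCm38, minus strand, Entrez 12227). Its relatives Btg1 and Btg3 had log2 differences of -0.12 and -0.23.

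Ier2 encodes a small nuclear protein induced by serum and growth factors, from a gene with a single exon on chromosome 8, from 84661331 to 84662852 (GRCm38, minus strand, Entrez 15936). It stood at 11.3, 5.06 and 4.67 CPM in controls 1 to 3 and at 4.83, 4.68 and 6.07 CPM in isolated 1 to 3. Control 1 stood alone, and the other 5 libraries lay within 4.67 to 6.07 CPM. The means of 7.01 ± 3.72 and 5.19 ± 0.765 CPM (SD, n = 3) differed by -0.43 in log2 (SE 0.34, 95% interval -1.22 to 0.35), and by 0.09 without control 1. Of the genes named like it for their early response, Ier3 was at 9.11 ± 1.19 and 6.93 ± 0.794 CPM (log2 difference -0.40, SE 0.14), with its groups apart, and Ier5 had a log2 difference of -0.16.

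Sik1 encodes a kinase of the AMPK family that is itself a CREB target. It was at 25.0, 24.2 and 9.67 CPM in controls 1 to 3 and at 11.6, 10.9 and 17.0 CPM in isolated 1 to 3. Controls 1 and 2 were high together, control 3 was the lowest of the 6 libraries, and isolated 3 lay between. The means of 19.6 ± 8.64 and 13.2 ± 3.34 CPM (SD, n = 3) gave a log2 difference of -0.58 (SE 0.35, 95% interval -1.38 to 0.23). Without control 1 it was -0.37, and without control 3 it was -0.90. Sik1 lies on chromosome 17 from 31844248 to 31855804 (GRCm38, minus strand, Entrez 17691). The constitutive relatives Sik2 and Sik3 had log2 differences of 0.04 and 0.09.

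Gadd45b encodes a small protein that activates the kinase upstream of p38 and has been tied to activity-induced DNA demethylation in neurons. Its levels were 11.0, 11.1 and 7.04 CPM in controls 1 to 3 and 8.3, 7.78 and 7.56 CPM in isolated 1 to 3. Controls 1 and 2 lay above every isolated library and control 3 below all of them. The means of 9.71 ± 2.31 and 7.88 ± 0.381 CPM (SD, n = 3) gave a log2 difference of -0.30 (SE 0.18, 95% interval -0.72 to 0.11), which was -0.20 without control 1 and -0.49 without control 3. Gadd45b lies on chromosome 10 from 80930091 to 80932204 (GRCm38, plus strand, Entrez 17873). Gadd45a and Gadd45g had log2 differences of 0.03 and 0.21.

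Klf4 encodes a transcription factor that limits axon growth in neurons and is also made by endothelial cells. It stood at 9.78, 8.77 and 4.78 CPM in controls 1 to 3 and at 6.35, 5.38 and 5.96 CPM in isolated 1 to 3. As for Gadd45b, control 3 lay below every isolated library. The means of 7.78 ± 2.64 and 5.9 ± 0.486 CPM (SD, n = 3) gave a log2 difference of -0.40 (SE 0.25, 95% interval -0.98 to 0.18), which was -0.20 without control 1 and -0.65 without control 3. Endothelial markers, 10 of 10 above zero in all libraries, summed to 272, 283 and 266 CPM in controls 1 to 3. They summed to 242 to 256 CPM after isolation, with the groups apart. Their part in the Klf4 values was not tested. Klf4 lies on chromosome 4 from 55527137 to 55532475 (GRCm38, minus strand, Entrez 16600).

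Among the relatives of Klf4, Klf10, a TGF-beta-inducible repressor, stood at 65.2, 59.4 and 39.7 CPM in controls 1 to 3 and at 37.0, 36.1 and 31.5 CPM in isolated 1 to 3. Every isolated library lay below every control, with a log2 difference of -0.65 (SE 0.17, edgeR adjusted p = 0.999) that was -0.51 without control 1. Klf2, an endothelial and flow-responsive member, had a log2 difference of -0.56 with groups that overlapped. The remaining Klf relatives tested, Klf3, Klf5, Klf6, Klf7, Klf9, Klf12, Klf13 and Klf15, had log2 differences between -0.05 and 0.23.

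The controls were further apart than the isolated libraries for these genes. The highest control exceeded the lowest by more than 1.5 times for 8 of the 9 genes, against 16.0% of all tested genes, with ratios from 1.44 for Dusp4 to 3.12 for Dusp1. Among the isolated libraries the same ratio was above 1.5 for 3 of the 9, Dusp1 (1.54), Dusp5 (1.8) and Sik1 (1.56), against 13.2% of all genes. For 9 of 9 genes the ratio was wider in control than in isolated libraries, as it was for 60.6% of all genes. With 2 controls left this held for 5 of the 9 without control 1 (39.5% of all genes), 9 without control 2 (35.7%) and 4 without control 3 (39.2%). A ratio over 2 controls can only be equal or smaller than one over 3. These counts are therefore to be read against the shares beside them and not against those with all 3 controls. Without control 1 the 2 controls left differed by more than 1.5 times for 4 of the 9 (9.35% of all genes), and without control 3 for 3 of the 9 (9.22%). Without control 2 this held for 8 of the 9 (7.95%).

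The order of the libraries was shared by most of the genes. Control 1 was the highest of the 6 libraries for 8 of the 9 genes and for 17.3% of all tested genes, with Gadd45b, highest in control 2, as the exception. Control 3 was the lowest control for 9 of 9 genes and for 33.2% of all genes. It was the lowest of all 6 libraries for 5 of the 9 and for 16.4% of all genes. Among the isolated libraries, isolated 3 was highest for 5 of the 9 (37.6% of all genes) and isolated 1 for 4 (32.7%), and isolated 2 was lowest for 6 (28.8%). Over all genes, control 3 was closer to isolated 1 and isolated 2 (chi-square per gene of 3.55 and 3.69) than to control 1 (9.52) and control 2 (20.2). This was not particular to control 3. Control 1 was also closer to isolated 1 and isolated 2 (6.61 and 7.79) than to control 2 (16.6) and control 3 (9.52). Isolated 3 was closer to control 1 and control 2 (9.63 and 10.5) than to isolated 1 and isolated 2 (14.6 and 13).

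To set genes of unlike abundance side by side, each gene's log2 CPM was centred on its own mean over the 6 libraries. On this scale the mean of the 9 genes was 0.67 in control 1, 0.23 in control 2 and -0.36 in control 3, and -0.13, -0.36 and -0.04 in isolated 1 to 3. The controls therefore reached both the highest value and a value equal to the lowest isolated library. Within this shared profile Dusp5 and Ier2 were above their mean in control 1 (0.82 and 0.96) but below it in control 2 (-0.21 and -0.18). Sik1, Gadd45b and Klf4 were high in both controls 1 and 2, with 0.71 and 0.66 for Sik1. Dusp1, Dusp6 and Btg2 stepped down from control 1 through control 2 to control 3, from 1.10 through 0.30 to -0.54 for Dusp1. Dusp4 fell little from control 1 to control 2 (0.38 and 0.25), as did Klf4 (0.56 and 0.40). Dusp4, Dusp5, Ier2, Sik1 and Klf4 also ran in this order over the controls, so these groupings have no sharp border. The closest pairs by root-mean-square distance over the 6 libraries were Dusp4 with Dusp6 (0.12) and Gadd45b with Klf4 (0.13), and the widest distance of Dusp5 was to Sik1 (0.43).

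**Figure D3:**
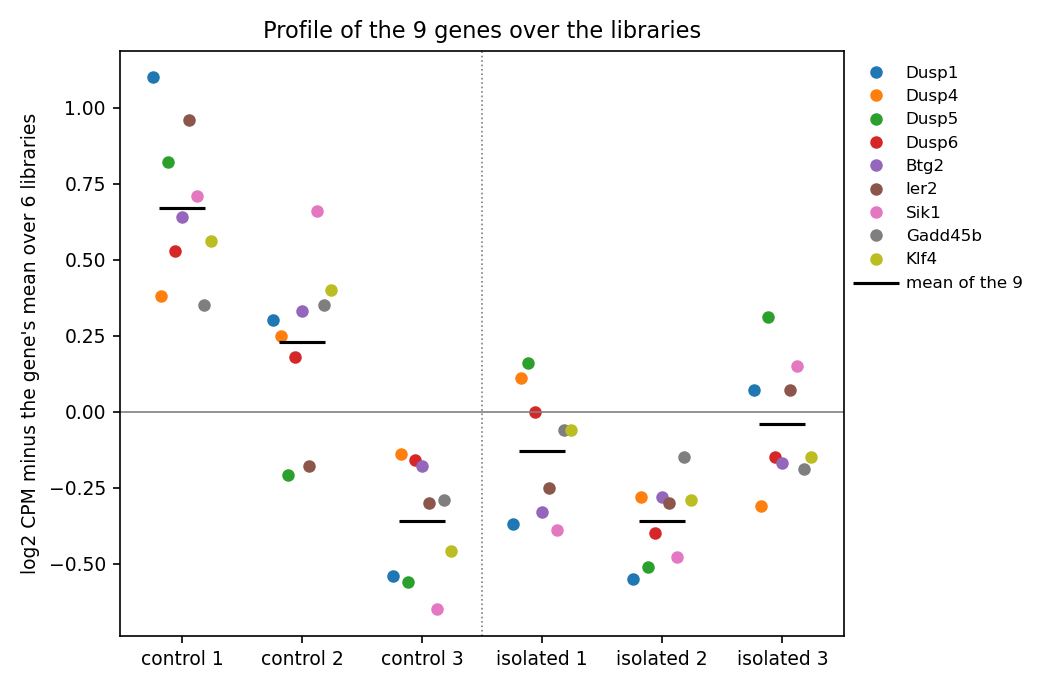
Centred log2 CPM of the 9 genes (coloured points) in each library and their mean (black lines). The mean is 0.67 in control 1 and -0.36 in both control 3 and isolated 2.

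The size of the group difference changed with the control library left out. Without control 1 the log2 difference was below 0 for 7 of the 9 genes (50.7% of all genes), with a median of -0.20, and no gene of the 9 had an unadjusted p under 0.05 with edgeR. Without control 3 it was below 0 for 9 of 9 (49.1% of all genes), with a median of -0.65. Control 3 was the lowest control for 9 of 9 genes, against 33.2% of all genes. Leaving it out had to move their differences further below 0, so the counts in this setting add no separate support. The isolated libraries then lay below both remaining controls for 7 of the 9 genes, against 11.1% of all genes. In that setting 7 of the 9 had an unadjusted p under 0.05 in edgeR, all with a lower level in isolated libraries. Over all genes 860 of 15336 had one, but in either direction, so the counts are not of the same kind. The lowest adjusted p of the 9 was 0.681. Without control 2 the difference was below 0 for 9 of 9 genes (49.4%) with a median of -0.40. Control 2 and isolated 3 held the highest striatal marker sums, and without both the median of the 9 was -0.44. With the striatal marker level as a covariate it was -0.37.

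**Figure D4:**
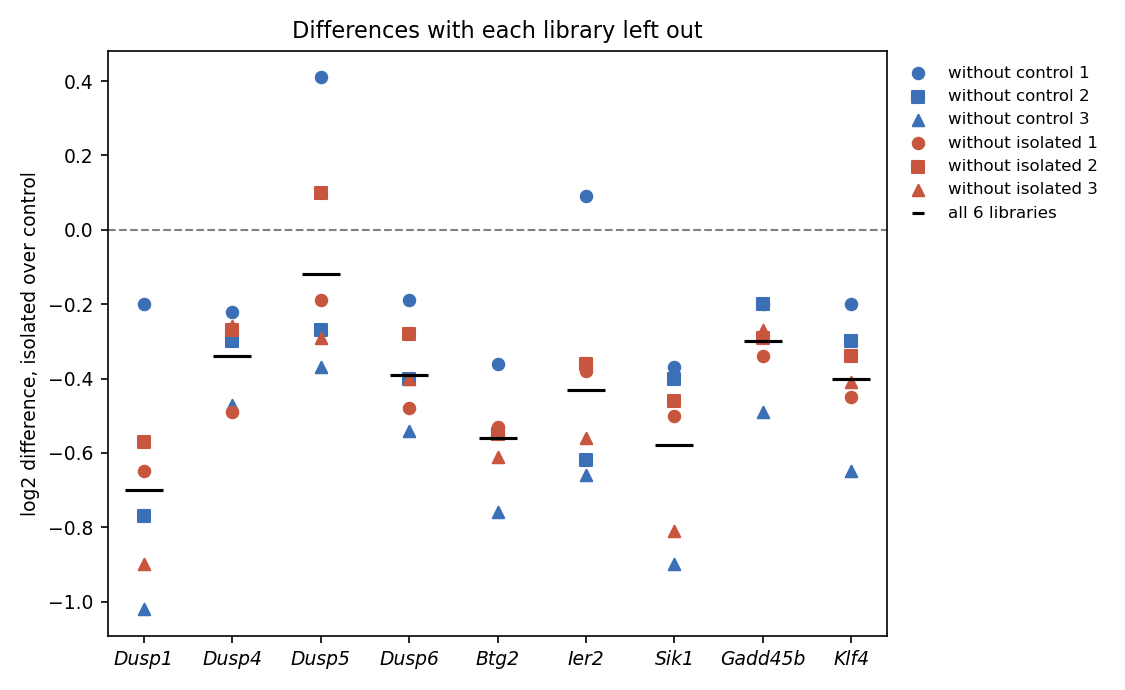
Log2 difference of isolated over control for each gene with all 6 libraries and with each library left out in turn. Leaving out control 1 turns the differences of Dusp5 (0.41) and Ier2 (0.09) and moves the other 7 toward 0, and leaving out control 3 moves them away from 0.

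Levels of different genes can be set side by side only per length, for which the authors' FPKM values (fragments scaled by transcript length and library size) were used. By mean FPKM over the 6 libraries the order was Dusp6 (21.2), Dusp1 (15.1), Gadd45b (6.84), Dusp5 (4.92), Ier2 (4.0), Sik1 (3.62), Dusp4 (3.4), Btg2 (3.36) and Klf4 (2.24). Of the 8 neighbouring pairs in this order, the ranges over libraries were apart for 1, Dusp1 (9.39 to 29.57 FPKM) and Gadd45b (5.42 to 8.67 FPKM). Within a library Dusp6 exceeded Dusp1 in 6 of 6, by a ratio of 1.01 in 1 library and up to 1.96 in another. Gadd45b exceeded Dusp5, Dusp5 exceeded Ier2, and Btg2 exceeded Klf4 in 6 of 6 libraries, and Ier2 exceeded Sik1 in 5. Sik1 was above Dusp4, and Dusp4 above Btg2, in 3 of 6 each, so these 3 genes had no fixed order. 

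**Figure D5:**
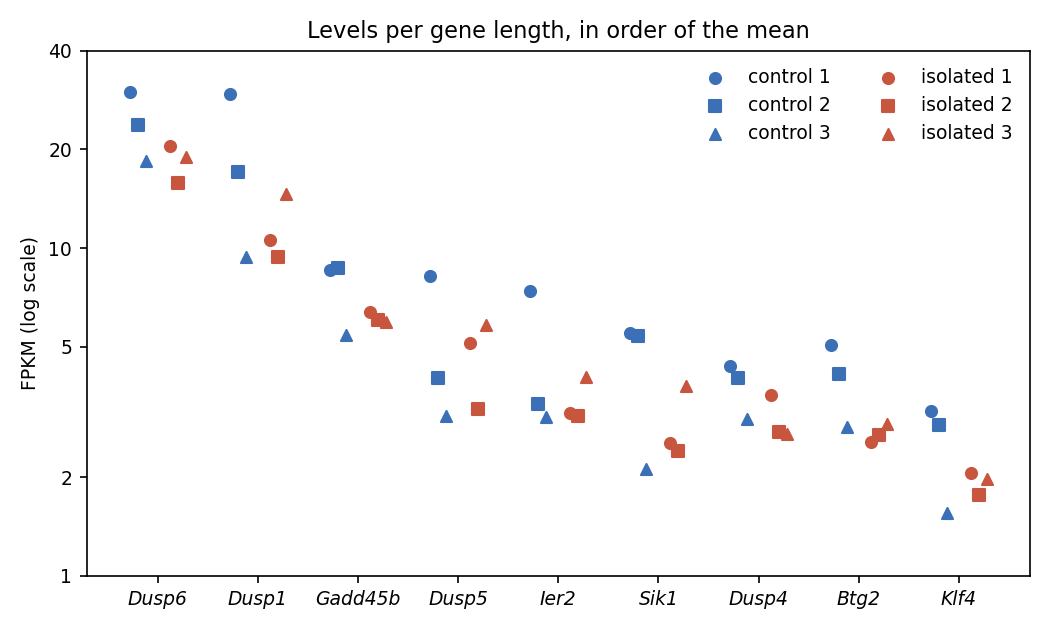
FPKM of the 9 genes on a log axis, in order of their mean, with points for control and isolated libraries. Dusp6 and Dusp1 lie at 9.39 FPKM and above in every library, and the other 7 genes at 8.67 FPKM and below.

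The genes whose profile over the 6 libraries was most like the mean of the 9 were found among 11693 other genes with a mean of at least 5 CPM, where the median distance was 0.376. The clock gene Per1, which is also induced early through CREB, was nearest at a distance of 0.049. It stood at 275, 203 and 135 CPM in controls 1 to 3 and at 147, 132 and 155 CPM in isolated 1 to 3, the same steps as Dusp6 and Btg2 in the controls. Its log2 difference of -0.50 (SE 0.22) was -0.22 without control 1. The coregulator gene Irf2bp2 (distance 0.092), the Sprouty gene Spry4 (0.115), the DNA-binding protein gene Arid3b (0.123) and the early gene Ier5l (0.138) followed, with log2 differences of -0.37, -0.34, -0.49 and -0.53. The 9 genes themselves lay at 0.11 to 0.285 from their own mean, which they helped to set. Likeness over 6 libraries is a description, and without control 1 the log2 differences of Irf2bp2, Spry4, Arid3b and Ier5l were -0.19, -0.02, -0.35 and -0.30.

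Of 9 other tested genes for phosphatases of MAP kinases, 4 had a log2 difference below 0 (50.8% of all tested genes) and 5 above it. The median was 0.04, and 0 passed the test. Dusp10, which encodes MKP-5, a phosphatase of p38 and JNK, stood higher in isolated libraries: 6.05, 4.47 and 5.99 CPM in controls 1 to 3 and 7.27, 7.5 and 7.99 CPM in isolated 1 to 3. Its groups were apart, with a log2 difference of 0.46 (SE 0.14, edgeR adjusted p = 0.999), and it was 0.54 without control 1. The gene was named for its unadjusted p, so groups that are apart add no separate support. The share of all genes with every isolated library above every control was not counted. Dusp2, a nuclear phosphatase best known from immune cells, was scarce, at 0.8 ± 0.213 and 0.901 ± 0.303 CPM (SD, n = 3).

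The Sprouty and Spred proteins and related inhibitors hold back Ras and Raf at the membrane. Of 11 tested genes 10 had a log2 difference below 0, against 50.8% of all tested genes, but the median was -0.03 and 0 passed. Spry4 was furthest from 0, at 24.7, 15.5 and 12.7 CPM in controls 1 to 3 and 14.2, 13.2 and 14.5 CPM in isolated 1 to 3, again highest in control 1. Spred3 had a log2 difference of 0.15.

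For the cascade from Ras to ERK and its effector kinases, 19 of 26 genes had a log2 difference below 0, against 50.8% of all tested genes. The median was -0.04, and 0 passed. The scaffold gene Ksr1 had means of 44.3 ± 5.07 CPM in the controls and 53.6 ± 3.29 CPM after isolation (log2 difference 0.27, SE 0.09). Rps6ka3, which encodes the ERK-activated kinase RSK2, was at 91.0 ± 8.27 and 77.1 ± 2.4 CPM (log2 difference -0.24, SE 0.07). Both had groups that were apart and an edgeR adjusted p of 0.999. Of the p38 and JNK kinases and their activators 13 of 14 were tested, without Mapk13. There 4 were below 0 (50.8% of all tested genes) and 9 above it, with a median of 0.02 and 0 passing. The members furthest from 0 were Map2k3 (-0.12) and Mapk11 (0.08).

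The 23 tested regulators of early transcription were genes of the CREB, CRTC, SRF, MKL, ELK and MEF2 factors, calcium-dependent kinases, acetyltransferases and deacetylases. Of these, 17 had a log2 difference below 0 (50.8% of all tested genes). The median was -0.04 and 0 passed. Control 1 was the highest library for 10 of the 23, against 17.3% of all tested genes. It was also highest for 8 of the 22 relatives of the 9 genes, 4 of the 26 cascade genes and 3 of the 13 p38 and JNK genes. For the Sprouty and related genes this held for 2 of 11, and for the other phosphatase genes for 1 of 9. Srf stood at 70.2, 70.7 and 56.8 CPM in controls 1 to 3 and at 55.8, 55.5 and 60.1 CPM in isolated 1 to 3 (log2 difference -0.21, SE 0.09). Its controls 1 and 2 were high together, as for Sik1, Gadd45b and Klf4. Mkl1, a coactivator of SRF, was at 82.2 ± 0.398 and 90.5 ± 5.71 CPM (log2 difference 0.14, and 0.08 without isolated 3), with the groups apart. The 22 relatives of the 9 genes divided evenly, with 11 below 0 (50.8% of all tested genes) and 11 above, a median of 0.01 and 0 passing.

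The other immediate early genes are a list put together with earlier results of these libraries known. A log2 difference below 0 was found for 22 of 27 tested genes, against 50.8% of all tested genes, with a median of -0.27 and 0 passing. The 5 others lay above 0, up to 0.13 for Egr3. Arc had the lowest difference, -1.35, which was -0.29 without control 1. Fosl1 was not tested. Egr2, a zinc finger factor induced by ERK and SRF, was at 14.3, 13.0 and 5.17 CPM in controls 1 to 3 and at 5.16, 4.08 and 5.11 CPM in isolated 1 to 3. Its groups were apart by the narrow margin between control 3 and isolated 1 (log2 difference -1.17, SE 0.35). The nuclear receptor gene Nr4a2 was also apart, but highest in control 2, at 34.2, 78.0 and 33.9 CPM in controls 1 to 3 and 22.7, 19.4 and 29.7 CPM in isolated 1 to 3 (log2 difference -1.02, SE 0.34). Fos stood at 33.7, 23.2 and 13.6 CPM in controls 1 to 3 and at 15.8, 14.0 and 11.1 CPM in isolated 1 to 3, the same downward steps in the controls as Dusp1 (log2 difference -0.79, SE 0.30). Control 1 was the highest library for 15 of the 27 genes, against 17.3% of all tested genes. Without control 1, 21 of the 27 were below 0 (50.7% of all genes) with a median of -0.10, and Fos was at -0.43, Egr2 at -0.92 and Nr4a2 at -1.23. Without control 2, the library in which it was highest, Nr4a2 was at -0.51, and the median of the 27 was -0.23. Without control 3, 23 were below 0 (49.1% of all genes) with a median of -0.45.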

How the data were processed

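The authors deposited, per the file headers, an expected count and an FPKM value for each gene in each of the 6 libraries. An expected count shares out reads that match several genes, so it need not be whole. The deposited FPKM values scale counts by length and library size. Per the submitters' processing notes, the tools were HISAT, Bowtie2 and RSEM with the build mm10. Their versions and settings are not given in the sources used here. Reads were 50 bases long, from a BGISEQ-500 instrument, per the labels' protocols. A table of the whole series with 6 FPKM columns that match no sample label was not used here.

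Genes absent from a table were set to 0, and the entry without a gene symbol, at most 0.000947% of a library, was left out. Expected counts were rounded and tested with edgeR 4.0.16 (R 4.3.3): filterByExpr (minimum count 10, minimum total 15), TMM factors of 0.9909 to 1.012, the quasi-likelihood F-test without covariates, and Benjamini-Hochberg adjustment over 15169 genes with a threshold of 0.05. The code was tested on simulated data. Log2 differences are isolated over control, with a standard error from the F statistic. CPM values are counts divided by the TMM-scaled library size. Likeness used log2 CPM with a prior count of 2. DESeq2 1.42.0 and limma 3.58.1 served as alternatives, with other filters, other scaling, log2(FPKM + 1) and log2(FPKM + 0.1), libraries left out, a replicate block and a striatal covariate. Of the gene identifiers 19899 matched RefSeq GRCm38.p6, which gave the coordinates. Exon overlaps and exon counts came from the GENCODE gene annotation of GRCm38. No pair of libraries agreed within counting noise (chi-square per gene of 2.89 to 20.4).

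The 9 genes and the lists were chosen with earlier results of these data known. Named beside them are, in each pathway list, genes with an unadjusted p under 0.05 or otherwise the 2 with the largest absolute difference. Relatives that share a family name and the 5 genes nearest in profile are named too. Arc and Egr3 are named as the lowest and highest of the other immediate early genes. For genes named by that p, groups that are apart add no separate support. Leaving out single controls for the spread of the controls, for groups apart and for the lists, and single libraries for genes outside the 9, was added after seeing the data.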

Additional observations from a re-analysis of the deposited data

How the results depend on the processing

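Under 16 alternatives the 9 genes gave 144 log2 differences, of which 141 kept the sign of the main value and 3 did not: Dusp5 without control 1 (0.41) and without isolated 2 (0.10), and Ier2 without control 1 (0.09). With single libraries left out Dusp5 ranged from -0.37 to 0.41 and Ier2 from -0.66 to 0.09. In 0 of the 144 was the adjusted p under 0.05, and the lowest was 0.681. The median of the 9 differences lay between -0.65 and -0.20 with single libraries left out, and was -0.40 without a filter, -0.40 with DESeq2, -0.34 with limma-voom, -0.27 on log2(FPKM + 1) and -0.32 on log2(FPKM + 0.1). The number of genes passing was 0 in the main comparison and 1 with DESeq2, Fkbp5, and 0 under every other alternative run. With the replicate block the median was -0.35, 0 genes passed and 331 genes had an unadjusted p under 0.05, against 535 without it. The replicate numbers are not said to pair the samples, and the deviations of same-numbered libraries from their group means had r of 0.0254, -0.269 and -0.492. The number at an unadjusted p under 0.05 was 904 with the striatal covariate, and 860 without control 3. With 64 to 1563 counts per library and 3 libraries a group, the 95% intervals of 8 of the 9 genes include 0.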
